A study of Rattus norvegicus with 54 samples.

Results

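The matrix genes described here are the collagens, matrix metalloproteinases (Mmp), their tissue inhibitors (Timp), the Adamts family and 11 further matrix genes (Lum, Dcn, Bgn, Fn1, Sparc, Postn, Tnc, Fbn1, Lox, Eln and Tgfb1). They were taken by gene symbol alone, from all probe sets annotated with 1 symbol, and no measured value entered the choice. The rule gave 83 probe sets for 61 genes, of 15866 probe sets for 10411 genes, and 19 of the 61 genes had more than 1 probe set. By role there were 10 genes for fibrillar collagens, 7 for basement membrane collagens, 12 for other collagens, 14 for Mmps, 4 of the Adamts family, 3 Timps and 11 for the remaining matrix proteins and factors.

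The study measured messenger RNA with Affymetrix Rat Expression 230A arrays in epididymal adipose tissue, gastrocnemius skeletal muscle and liver of male Zucker rats. In each tissue there were 6 groups of 3 arrays, 54 arrays in all: untreated lean rats (fa/+), untreated fatty rats (fa/fa, called obese here), and obese rats given pioglitazone, rosiglitazone, troglitazone or AG035029, each labelled as a PPARγ ligand. The fa allele is a loss-of-function form of the leptin receptor gene. The lean rats therefore carried 1 fa allele and were not wild type. Each array was hybridised with RNA pooled from 2 rats. The labels do not state whether the 3 arrays of a group held different pools, so that p-values measure the spread between these arrays, part of which may be technical. Age, dose and length of treatment are not given in the sources used here.

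The extracellular matrix is the protein scaffold between cells. Fibrillar collagens form its fibres, collagen IV forms the sheet-like basement membrane, and Dcn and Lum encode proteoglycans that bind collagen fibrils. Mmps cut matrix proteins, Timps inhibit Mmps, and Tgfb1 encodes a growth factor that drives fibroblasts to make matrix. In adipose tissue each adipocyte is wrapped in a basement membrane, and the matrix is remodelled when the depot grows. PPARγ is a nuclear receptor that directs adipocyte differentiation, and the glitazones are its agonists. In a whole tissue, fewer cells of a type and less RNA per cell cannot be told apart.

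The unit throughout is the deposited array signal, a linear brightness, and changes are differences of log2(signal + 20), which understate the change of dim probe sets. A probe set was tested in a tissue where its mean signal lay above the 40th percentile. This left 61 of the 83 probe sets (43 genes) in adipose tissue, 42 (32 genes) in liver and 56 (41 genes) in muscle. A member is called where limma's Benjamini-Hochberg adjusted p over all 9519 probe sets tested in the tissue was under 0.05. The spread between arrays of a group was smallest in adipose tissue, where the median residual SD over the members was 0.23. Liver had 0.39 and muscle 0.36. The typical 95% interval of an obese against lean difference was accordingly ± 0.37 for adipose tissue, ± 0.66 for liver and ± 0.57 for muscle.

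The labelled tissues carried their defining transcripts. In lean rats the summed signal of 8 adipocyte markers was 52953.4 to 66372.1 in adipose tissue and 1114.9 to 1321.9 in liver, that of 9 hepatocyte markers 351264.9 to 365801.3 in liver and 593.0 to 916.0 in muscle, and that of 9 muscle fibre markers 343542.5 to 416784.9 in muscle and 1044.8 to 1239.7 in liver. However, 3 arrays stood apart from the others of their tissue. Array 1 of the AG035029 adipose group had a signal of 4623.1 for Defb1, a defensin gene strongly expressed in epithelia, where the next highest adipose array had 65.0. Array 2 of the rosiglitazone adipose group had the highest signal of Spp1, the gene for osteopontin, at 4875.7 against an adipose median of 364.1. Array 3 of the troglitazone liver group had a signal of 13627.1 for the skeletal muscle actin gene Acta1, where the next highest liver array had 316.2. Counts of calls in adipose tissue without these arrays are given for the ligand mean, rosiglitazone and AG035029. Without them the calls of Timp1, Dcn and Col12a1 with AG035029, of Col1a1 (1370864_at) with rosiglitazone and with AG035029, of Col1a2 under the ligand mean and of 1 Lox probe set (1368172_a_at) in obese against lean rats were lost, with adjusted p from 0.0529 to 0.109, while Col4a2 (0.29, limma adjusted p = 0.0134) and Col15a1 (0.36, adjusted p = 0.0482) passed under the ligand mean. Other comparisons gained calls as well. Pioglitazone gained Col4a2, Col15a1 and Mmp24, and troglitazone gained Mmp12, Adamtsl4, Col4a1 and Col4a2. The ligand mean against lean rats gained Sparc and Col4a1, each on 1 probe set.

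In lean rats, the matrix genes were mostly highest in adipose tissue and lowest in liver. Over the 64 member probe sets tested in the joint fit of the 3 tissues, 50 were called higher in lean adipose tissue than in lean liver and 2 lower, 39 were higher and 6 lower in adipose tissue than in muscle, and 3 were higher and 40 lower in liver than in muscle. The called shares were 81.2%, 70.3% and 67.2% of the members, beside 54.4%, 56.5% and 54.7% of all 11520 probe sets. By direction, 32.1% of all probe sets were called higher and 22.4% lower in adipose tissue than in liver, 32.2% and 24.3% in adipose tissue than in muscle, and 25.4% and 29.2% in liver than in muscle. The median differences of the members were 2.53, 1.09 and -1.44 on the log2 scale, where the medians of all probe sets were 0.15, 0.13 and -0.06. A probe set entered the joint fit if it lay above the filter in at least 1 tissue. Of the 64, 61 did so in adipose tissue, 56 in muscle and 42 in liver. Where a member entered through 1 tissue only, its higher signal there largely follows from the filter and is no separate result. Many of the liver differences also rest on liver signals too dim for their size to be measured well.

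Col1a1, the gene for the main chain of collagen I, had lean means of 7446.2 in muscle, 4056.3 in adipose tissue and 319.8 in liver on 1370864_at, the probe set above the filter in all 3 tissues. Adipose tissue lay 3.58 above liver (SE 0.294, limma adjusted p = 3.08e-14), liver minus muscle was -4.41, and muscle lay 0.83 above adipose tissue (adjusted p = 0.0152). The other probe set (1388116_at) had means of 10072.8 in adipose tissue and 5412.8 in muscle, which did not differ beyond their spread (adjusted p = 0.0643), and the 2 probe sets therefore disagreed on that order. In liver it lay below the filter, at 65.0. Col3a1, which encodes the collagen that runs with collagen I in soft tissues, had means of 13138.5 in adipose tissue and 11701.3 in muscle, which did not differ beyond their spread (adjusted p = 0.551), and 2682.3 in liver.

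Collagen V chain gene Col5a3 showed the largest excess of adipose tissue over muscle among the members tested, with lean means of 4561.2 in adipose tissue, 135.6 in muscle and 23.5 in liver. Its signal in adipose tissue lay 5.12 above muscle (SE 0.538, limma adjusted p = 4.78e-11). Postn, which encodes periostin, a secreted protein that binds collagen and integrins, had means of 2804.0 in adipose tissue, 1420.2 in muscle and 13.2 in liver, and both neighbouring pairs in that order differed (larger adjusted p = 0.01). Tgfb1 had a mean of 441.3 in adipose tissue, and read 14.3 in liver and 12.4 in muscle. The liver signals of Col5a3, Postn and Tgfb1 and the muscle signals of Col5a3 and Tgfb1 lay below the filter, so that the sizes of these differences are not well measured. Col5a3 and Tgfb1 entered the joint fit through adipose tissue alone. Their higher signal there largely follows from that filter, and the p-value of Col5a3 is not independent of it.

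Fn1, which encodes fibronectin, ran the other way. Its lean means were 10211.3 in liver, 6723.6 in adipose tissue and 2432.9 in muscle, and liver exceeded adipose tissue by 0.57 (SE 0.192, limma adjusted p = 0.0106). Hepatocytes are the source of plasma fibronectin. Fn1 was also the member with the highest mean over all 18 liver arrays, at 8043.2, followed by Col3a1 at 2589.1. Col18a1, whose product gives rise to endostatin, had means of 1349.6 in liver and 1544.8 in adipose tissue on the probe set 1388143_at, which did not differ beyond their spread (adjusted p = 0.343), and 242.8 in muscle.

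**Figure D1:**
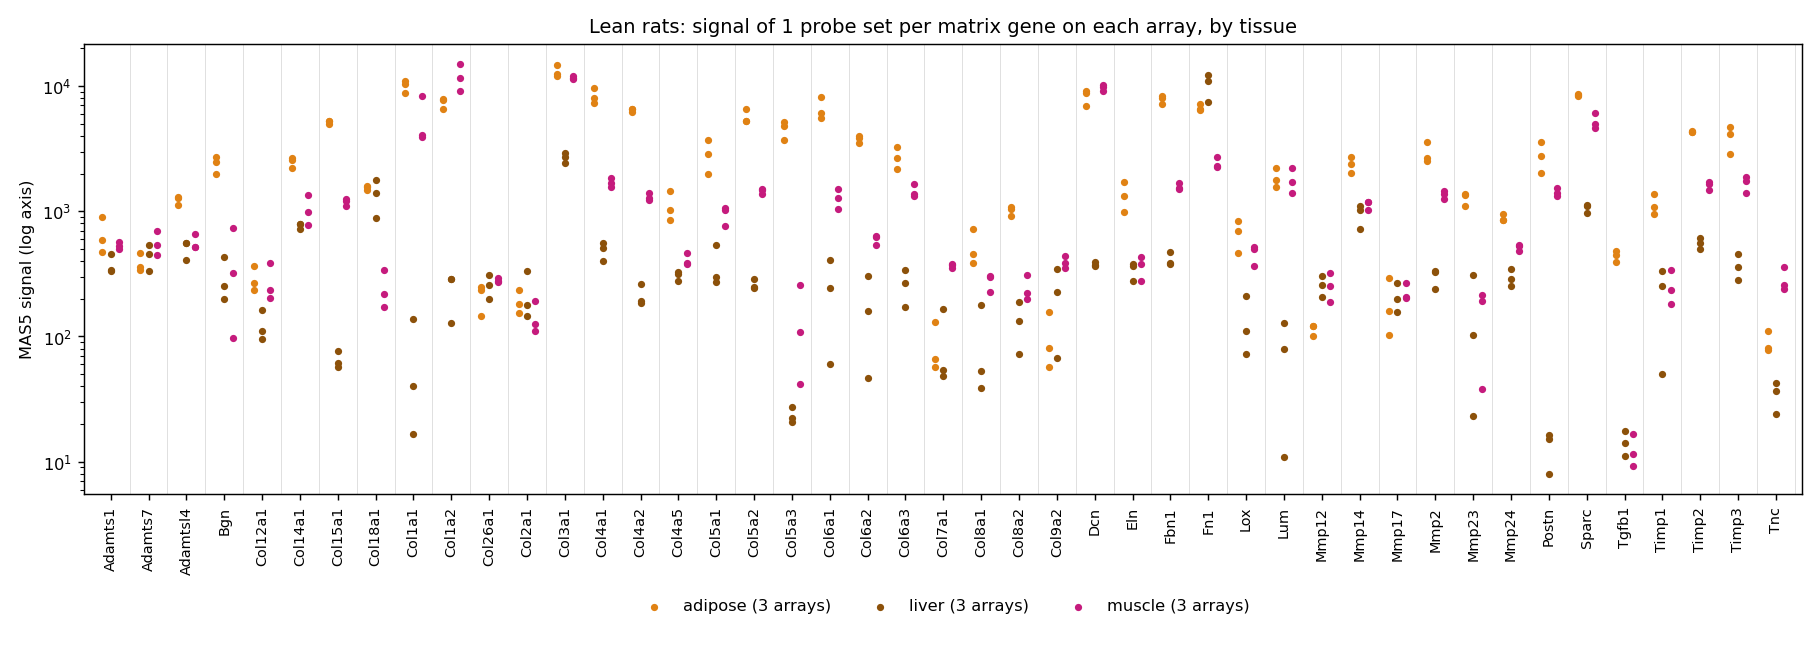
Signal of 1 probe set for each of 45 matrix genes in the lean rats (vertical log axis, array signal), with 1 point per array and 3 arrays for each tissue. Most genes lie highest in adipose tissue and lowest in liver, as Postn does with 2804.0, 1420.2 and 13.2 in adipose tissue, muscle and liver, while Fn1 is highest in liver.

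In obese against lean adipose tissue, Tgfb1, Timp1 and both probe sets of Lox rose and Adamtsl4 fell. These were 5 of 61 member probe sets, or 8.20%, where 6.02% of all probe sets tested were called (3.16% higher and 2.86% lower). Without array 1 or 3 of the obese group, or array 1 of the lean group, 1 member was called, and Tgfb1 was the member that kept its call under every alternative run.

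Tgfb1 read 480.1, 448 and 395 on the lean arrays and 802, 639 and 818 on the untreated obese arrays. All 3 obese arrays lay above the lean ones. Such a lack of overlap was common in this comparison, with 17 of the 61 members and 27.9% of all probe sets tested. The log2 difference was 0.74 (SE 0.154, limma adjusted p = 0.00706).

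Timp1, which encodes a broad inhibitor of Mmps, read 953, 1379 and 1089.5 on the lean arrays and 2425, 2092 and 1709 on the obese ones, again without overlap, and rose by 0.85 (SE 0.242, limma adjusted p = 0.0427). Lox encodes lysyl oxidase, the enzyme that starts the crosslinking of collagen and elastin. Its signals (1368171_at) were 696, 462 and 842 in lean and 1398, 1147 and 1135 in obese rats, a rise of 0.90 (SE 0.247, adjusted p = 0.0377). The other Lox probe set rose by 0.99 (adjusted p = 0.0485). The calls of Timp1 and Lox were lost in 6 to 11 of 27 alternatives. Adamtsl4, whose product binds microfibrils and is not a protease, read 1293, 1282 and 1117 in lean and 762, 832 and 770.0 in obese rats, and fell by 0.63 (SE 0.153, adjusted p = 0.0194).

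None of the 11 fibrillar collagen probe sets tested was called between obese and lean adipose tissue, and all 11 lay below 0, with a median of -0.19 where the median of all probe sets was -0.02. At an unadjusted p under 0.05, 12 of the 61 members passed (19.7%), beside 20.7% of all probe sets. Mmp23 (-0.54, limma adjusted p = 0.0527), Col12a1 (0.84, adjusted p = 0.0776) and Col7a1 (0.64, adjusted p = 0.0825) lay nearest to the threshold.

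With the PPARγ ligands, matrix genes of adipose tissue moved in both directions. Set against untreated obese rats, the mean of the 4 ligand groups was higher for 9 member probe sets and lower for 9. That is 29.5% of the 61 tested, where 20.6% of all probe sets were called (9.01% higher and 11.6% lower). The members' median was 0.07 against -0.05 for all probe sets. Tnc, Postn and the collagen genes Col5a3, Col12a1, Col1a1, Col6a3, Col1a2 and Col4a1 rose. The proteoglycan genes Lum and Dcn, the protease genes Mmp2 and Mmp14, the inhibitor genes Timp1 and Timp2, Tgfb1 and Col14a1 fell. Col1a1, Col1a2 and Timp2 were called only on their dimmer probe set, and the brighter one was not called. Without the 3 arrays that stood apart, 10 members were higher and 9 lower. With all arrays, the 12 ligand arrays did not overlap the untreated obese ones for 15 of the 61 members, beside 11.6% of all probe sets.

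Tnc, which encodes tenascin C, a matrix glycoprotein otherwise linked to development and wound repair, made the largest of these changes. It read 78.2, 110.4 and 81.1 on the lean arrays and 49.8, 126 and 86.2 on the untreated obese arrays. The pioglitazone arrays read 739.7, 735 and 964, the rosiglitazone arrays 399.5, 273 and 1274, the troglitazone arrays 414, 284 and 647, and the AG035029 arrays 443, 791 and 491. Every one of the 12 ligand arrays lay above all 6 untreated arrays. The ligand mean exceeded the untreated obese group by 2.50 (SE 0.325, limma adjusted p = 3.03e-05) and the lean group by 2.42.

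Postn read 3606, 2786 and 2019.9 in lean and 1846, 2343 and 3411 in untreated obese rats. Its signals were 8198, 6599 and 8470.3 with pioglitazone, 5070.1, 5457 and 8194 with rosiglitazone, 4826, 5255 and 8742 with troglitazone, and 6449, 8016 and 4704 with AG035029. Here too all ligand arrays lay above all untreated ones, and the rise over untreated obese rats was 1.40 (SE 0.214, limma adjusted p = 0.000154).

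The sequences just upstream of the starts of Tnc and Postn are shown because both genes rose in all ligand groups and both carry a TATA box close to the start. The 100 bases before the annotated start (RefSeq, build GRCr8) are given 5′ to 3′ on the gene's strand, at chr5:82476132-82476231 (minus strand) for Tnc and chr2:140677961-140678060 (plus strand) for Postn. Capitals mark all bases that match TATANA or its reverse complement TNTATA. The match begins 30 bases before the start in Tnc. In Postn TATANA begins at -44, and a match to TNTATA that begins at -46 overlaps it.

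Tnc: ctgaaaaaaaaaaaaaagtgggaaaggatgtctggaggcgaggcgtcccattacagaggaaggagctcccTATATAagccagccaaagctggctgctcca

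Postn: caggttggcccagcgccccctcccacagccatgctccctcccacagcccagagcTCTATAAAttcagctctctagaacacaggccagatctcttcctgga

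Among the 45 member genes with a RefSeq promoter, 13 held TATANA on either strand within 250 bases before the start, where 24.1% of all 27457 promoters did. Of the 10 genes called under the ligand mean that had a promoter, Tnc, Postn and Col1a2 held it among the 6 that rose, and none of the 4 that fell did. AGGTCA, the half-site of a PPAR response element, was found in 3 of the 45 (13.7% of all promoters), and none of those 3 genes was called. A direct repeat of this half-site with a spacer of 1 base was found in none of the 45 (0.0546% of all). These matches describe letters in a window and are not evidence of binding.

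**Figure D2:**
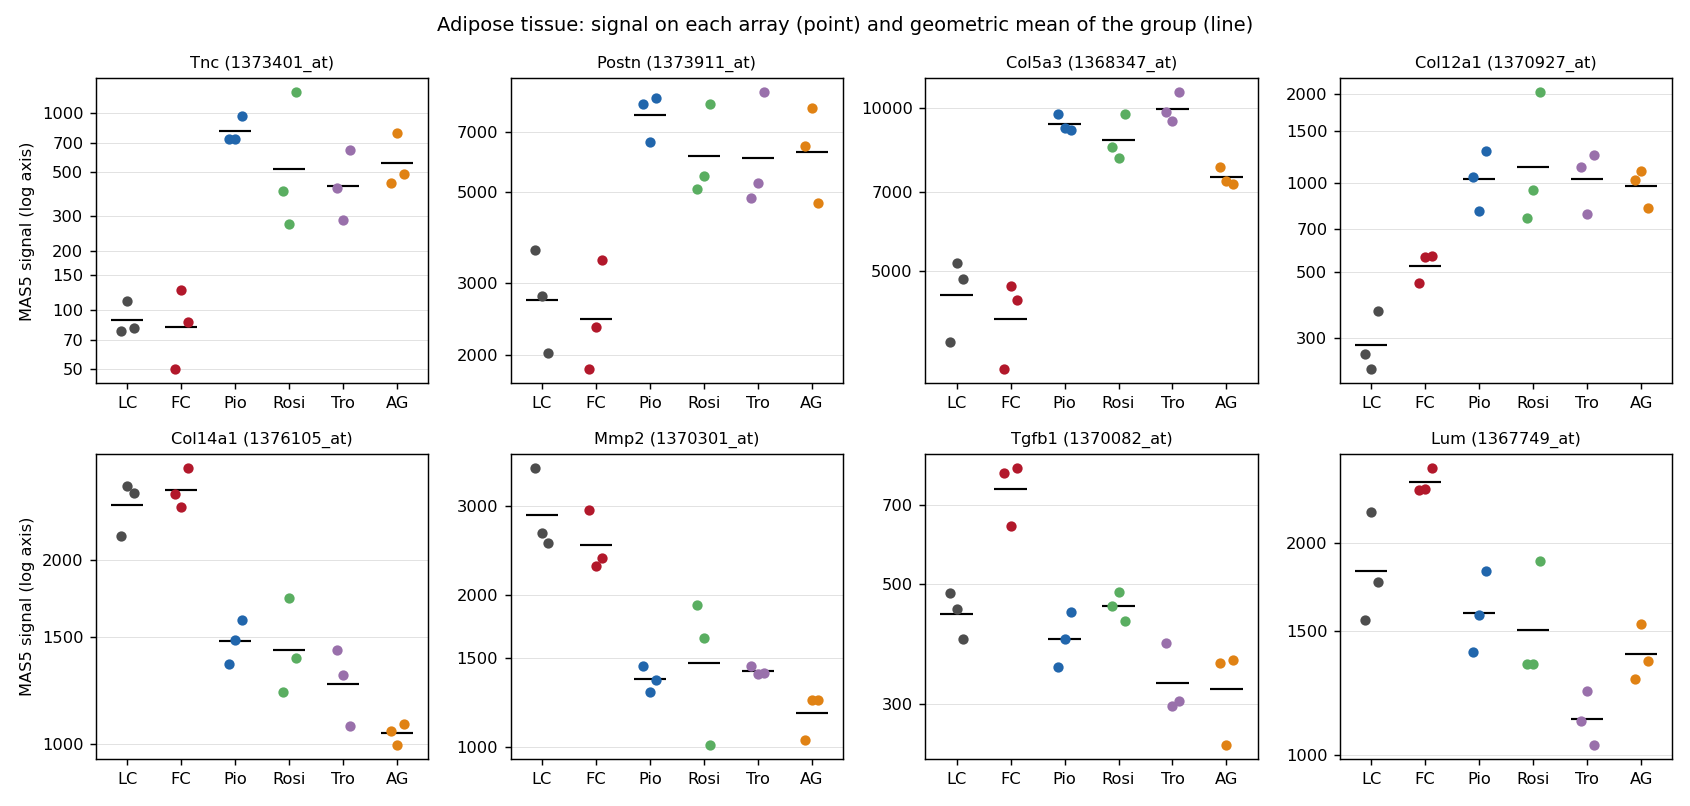
Signal in adipose tissue (vertical log axis, array signal) of Tnc, Postn, Col5a3, Col12a1, Col14a1, Mmp2, Tgfb1 and Lum in the 6 groups (LC lean, FC untreated obese, then obese with Pio pioglitazone, Rosi rosiglitazone, Tro troglitazone or AG AG035029), with 1 point per array and a line at the geometric mean of each group. Tnc, Postn, Col5a3 and Col12a1 lie higher in the 4 ligand groups than in the untreated obese group, and Col14a1, Mmp2, Tgfb1 and Lum lie lower, with no overlap.

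Of the 11 fibrillar collagen probe sets tested, 3 rose under the ligand mean, none fell, and 9 lay above 0. Col5a3 read 3289, 4679 and 4421 in untreated obese rats. It lay between 7241 and 10689 on the 12 ligand arrays, with AG035029 lowest at 7787, 7344 and 7241. The lean arrays read 3692, 5169 and 4823, within reach of the untreated obese ones. Col5a3 rose by 1.11 (SE 0.107, limma adjusted p = 1.31e-06), the smallest adjusted p among the members.

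Col1a1 (1370864_at) read 3025, 3232 and 2518 in untreated obese rats and 4183, 4855 and 3131 in lean rats. With pioglitazone it read 6862, 6816 and 7395, and the lowest of all ligand arrays was 3568, above the untreated obese group. The rise was 0.89 (SE 0.193, limma adjusted p = 0.00298). The brighter probe set, 1388116_at (adipose mean 11494.4 against 4895.7), gave 0.34 and was not called (adjusted p = 0.115). Col1a2, the gene for the partner chain in collagen I, rose by 0.53 on 1387854_at (SE 0.178, adjusted p = 0.0441), and that call was lost in 17 of 27 alternatives, with adjusted p from 0.00663 to 0.179. Rosiglitazone array 1, at 4420.3, and troglitazone array 2, at 4125, lay below all 3 untreated obese arrays for Col1a2. The brighter Col1a2 probe set 1370155_at (adipose mean 8285.0 against 6256.7) was not called. Col3a1, with a difference of 0.19, and Col5a1 and Col5a2 were not called either.

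Collagen IV forms a heterotrimer from the products of Col4a1 and Col4a2, which lie head to head on the genome. Both probe sets of Col4a1 rose, by 0.45 (SE 0.118, limma adjusted p = 0.0115) on 1373245_at and by 0.35 (SE 0.110, adjusted p = 0.0320) on 1372439_at, and these calls were lost in 2 and 5 of 27 alternatives. The 1373245_at signals were 8003, 6896 and 7008 in untreated obese rats, and of the ligand arrays troglitazone array 2, at 7980.0, lay within that range. Col4a2 gave 0.25 and fell short of the threshold (adjusted p = 0.0538). The region between the starts of Col4a2 and Col4a1 is only 76 bases long (RefSeq, GRCr8, chr16:84885521-84885596, plus strand), and is shown because it is the shared upstream region of both genes. Capitals mark CCGCCC, the reverse complement of the GC box GGGCGG, which 32.4% of all promoters and 22 of the 45 member promoters held.

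Col4a2 to Col4a1: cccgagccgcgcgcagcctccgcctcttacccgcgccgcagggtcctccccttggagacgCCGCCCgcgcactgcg

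Among the other collagens, 2 probe sets rose and 2 fell of 10 tested. Col12a1 encodes a collagen that sits on the surface of fibrils. It read 265, 234 and 368 in lean, 458, 561 and 564 in untreated obese rats, and between 759.7 and 2022 on the ligand arrays, so that the 3 sets of arrays did not overlap. It rose by 0.96 over untreated obese rats (SE 0.218, limma adjusted p = 0.00437) and by 1.80 over lean rats. Col6a3, the long chain of the microfibril collagen VI and the source of endotrophin, read 2025, 2581 and 2684 in untreated obese rats and between 2926 and 5113 with a ligand. It rose by 0.79 (SE 0.141, adjusted p = 0.000617), while Col6a1 (0.10, adjusted p over the threshold) and Col6a2 (-0.04 and -0.05 on its 2 probe sets) were not called.

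Col14a1 encodes another collagen of the fibril surface and moved the other way. On 1376105_at the signals were 2195, 2648 and 2573 in lean and 2569, 2442 and 2833 in untreated obese rats. They were 1355, 1479 and 1599 with pioglitazone, 1215, 1733 and 1385 with rosiglitazone, 1429, 1298 and 1069 with troglitazone, and 1050.3, 997 and 1078 with AG035029. All 12 ligand arrays lay below all 6 untreated arrays. Both probe sets fell, by 1.01 (SE 0.107, limma adjusted p = 3.66e-06) on 1376105_at and by 1.14 (SE 0.117, adjusted p = 2.77e-06) on 1376170_at.

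Of the remaining matrix proteins and factors, Tnc and Postn rose and Tgfb1, Lum and Dcn fell. Tgfb1 had been higher in obese than in lean rats, and read 350.5, 396 and 444 with pioglitazone, 455, 482 and 428 with rosiglitazone, 389, 297 and 304 with troglitazone, and 358, 252 and 361 with AG035029. All of these lay below the untreated obese arrays (639 to 818), and all but 1 of them (rosiglitazone array 2, at 482) lay within or below the lean range (395 to 480.1). Tgfb1 fell by 0.98 against untreated obese rats (SE 0.122, limma adjusted p = 2.07e-05), and its difference of -0.24 from lean rats was not called.

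Lum, the gene for lumican, read 2382, 2386 and 2559 in untreated obese rats. The ligand arrays lay between 1033 and 1888, with troglitazone lowest at 1117, 1235 and 1033. Lum fell by 0.80 (SE 0.118, limma adjusted p = 0.000113). Dcn, the gene for decorin, read 10457, 8668 and 9144 in untreated obese rats and between 5660.1 and 8042 with a ligand, and fell by 0.46 (SE 0.101, adjusted p = 0.00307). Neither gene overlapped between the untreated obese and the ligand arrays. Fn1 (-0.20), Bgn (0.22), Eln (0.34), Fbn1 (-0.19 and -0.16), Sparc (0.07 and -0.17) and Lox (-0.28 and -0.49) were not called.

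Of 8 Mmp probe sets tested, Mmp2 and Mmp14 fell. Mmp2 encodes gelatinase A, which cuts basement membrane and denatured collagen, and Mmp14 encodes the membrane-bound protease that activates it. Mmp2 (1370301_at) read 3573, 2658 and 2538 in lean, 2944, 2283 and 2375 in untreated obese rats, and between 1009 and 1915 with a ligand, below all untreated arrays. It fell by 0.89 (SE 0.145, limma adjusted p = 0.000264). Its dimmer probe set 1369825_at gave 0.29 and was not called (adjusted p = 0.404). Mmp14 read 2331, 2231 and 2801 in untreated obese rats and between 1025 and 2039.6 with a ligand, and fell by 0.54 (SE 0.144, adjusted p = 0.0126). That call was lost without array 3 of the obese group.

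Timp1 and Timp2 also fell, and no Timp rose among 7 probe sets tested. Timp1 read 1043, 1222 and 1677 with pioglitazone, 1372, 679 and 970.0 with troglitazone and 919, 1039.9 and 1333 with AG035029, all below the untreated obese arrays (1709 to 2425). With rosiglitazone it read 2649, 1847 and 1641 and overlapped them. The ligand mean was lower by 0.67 (-0.67, SE 0.191, limma adjusted p = 0.0176), and the call was lost without array 1 or array 2 of the obese group. Timp2 (1367823_at) read 537, 640.1 and 569.8 in untreated obese rats and at most 531 with a ligand (-0.55, SE 0.166, adjusted p = 0.0256). That call was lost in 4 of 27 alternatives, among them without any 1 of the 3 untreated obese arrays, with adjusted p up to 0.118. The brighter Timp2 probe set 1386940_at (adipose mean 3401.4 against 469.5) gave -0.18 and was not called (adjusted p = 0.168). None of 3 Adamts probe sets was called, at differences from -0.18 to 0.01.

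**Figure D3:**
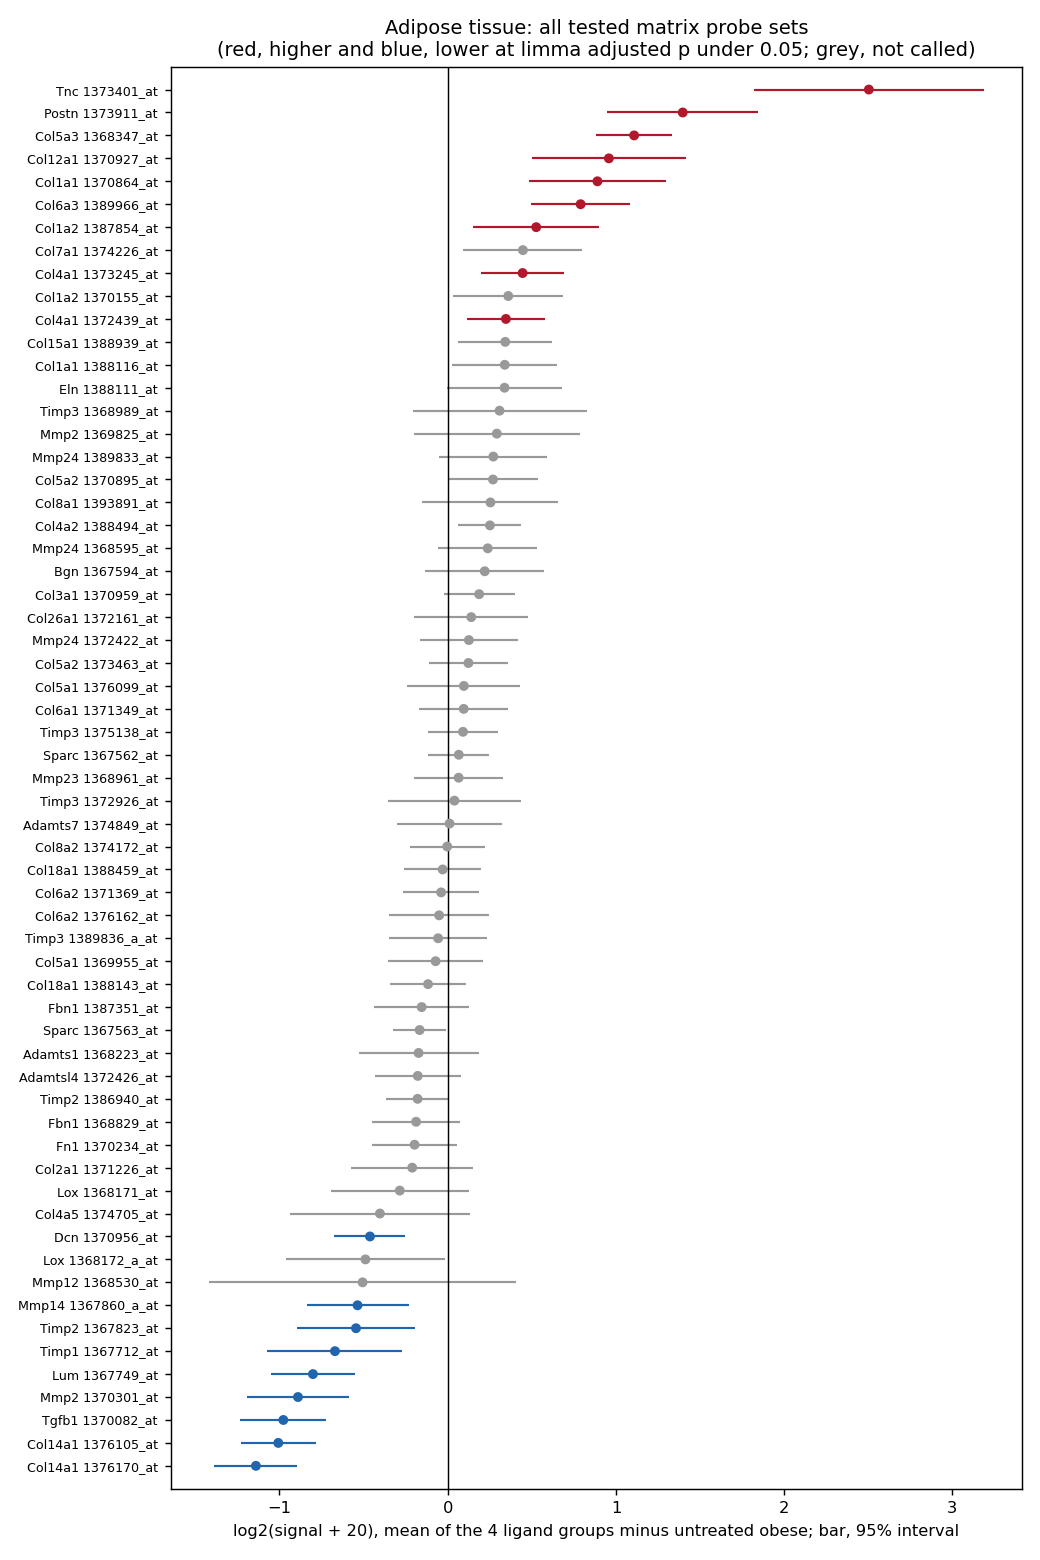
Difference between the mean of the 4 ligand groups and untreated obese rats in adipose tissue (horizontal axis, log2 of signal + 20) for the 61 member probe sets tested, each with its 95% interval from limma. Red marks the 9 called higher, blue the 9 called lower and grey the others; Tnc stands furthest out, at 2.50.

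Set against lean rats, the ligand mean was higher for 10 and lower for 13 of the 61 members, or 37.7%, where 35.5% of all probe sets were called (14.4% higher and 21.1% lower). Tnc (2.42), Col12a1 (1.80) and Col7a1 (1.09), which encodes the anchoring fibril collagen, led the higher members. Col14a1 (-1.09 and -0.92), Mmp2 (-1.09) and Col4a5 (-0.97), a minor basement membrane chain, led the lower ones. Lox rose on 1 probe set, by 0.61.

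Each ligand was then compared with the same 3 untreated obese arrays, which the 4 comparisons share, so that their results are not independent of each other. Pioglitazone gave 9 members higher and 6 lower (24.6% of members, beside 14.5% of all probe sets, 6.98% higher and 7.56% lower). Rosiglitazone gave 6 and 6 (19.7%, beside 5.56%, 2.87% higher and 2.69% lower). Troglitazone gave 5 and 9 (23.0%, beside 16.9%, 7.81% higher and 9.09% lower). AG035029 gave 6 and 7 (21.3%, beside 15.1%, 6.71% higher and 8.43% lower). Without obese array 1 or rosiglitazone array 3, rosiglitazone called 6 members in place of 12. Without rosiglitazone array 2 and AG035029 array 1, rosiglitazone called 13 and AG035029 11.

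In the order pioglitazone, rosiglitazone, troglitazone and AG035029, Tnc rose by 3.01, 2.40, 2.12 and 2.49. Postn rose by 1.64, 1.31, 1.30 and 1.34, and Col5a3 by 1.19, 1.09, 1.28 and 0.86. Col1a1 (1370864_at) rose by 1.26 with pioglitazone, 0.89 with rosiglitazone and 0.76 with AG035029, and its 0.65 with troglitazone was not called. The rosiglitazone and AG035029 calls of Col1a1 were each lost in 13 of 27 alternatives, with adjusted p up to 0.208 and 0.155, and both were lost without the arrays that stood apart. Col1a2 (0.79 on 1387854_at, not on the brighter 1370155_at) and Col4a1 (0.48 on 1373245_at) were called with pioglitazone and with no other ligand. Without the arrays that stood apart, this Col4a1 probe set also passed with rosiglitazone (0.58), troglitazone (0.42) and AG035029 (0.57). Among the members that fell, Tgfb1 gave -0.89, -0.70, -1.14 and -1.18, Mmp2 -0.88, -0.77, -0.82 and -1.10, and Lum -0.61, -0.69, -1.10 and -0.80, all called. Timp1 fell with troglitazone (-1.07) and AG035029 (-0.91), with no call for pioglitazone (-0.66) or rosiglitazone (-0.04), and its AG035029 call was lost without the arrays that stood apart (-0.79, limma adjusted p = 0.0615).

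These calls do not show that the ligands differed. An F-test for any difference between the 4 ligand groups called 0 of the 61 members with limma, while 10 passed an unadjusted p under 0.05, or 16.4%, beside 9.22% of all probe sets. Adjusted over all probe sets, 0.0315% of them were called. The smallest adjusted p among the members was 0.337, for Timp1, followed by Mmp12 and Col14a1 (1376105_at), both at 0.402. For Timp1, troglitazone minus rosiglitazone was -1.03 with a 95% interval from -1.54 to -0.53 (adjusted p = 0.138), an interval that leaves room for a sizeable difference. For Tnc, AG035029 minus rosiglitazone was 0.09 with an interval from -0.77 to 0.95. Mmp12, the macrophage elastase gene, read 1655 on rosiglitazone array 2, where no other adipose array exceeded 358. All 6 pairwise comparisons of the ligands called 0 members and at most 0.0420% of all probe sets, and since the doses are not given in the sources used here, none of them compares the compounds at a known matched dose.

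Pathway genes outside the rule were taken from lists of collagen making, basement membrane, proteoglycan and elastic fibre, TGF-beta, receptor and protease genes. Their counts under the ligand mean in adipose tissue stand beside the 20.6% of all probe sets called there (9.01% higher and 11.6% lower), and nothing particular to a list is read from them. Of collagen making and crosslinking, 1 of 15 tested genes rose (Plod1, a collagen lysyl hydroxylase, by 0.53, limma adjusted p = 0.000429) and none fell. Of 11 other basement membrane genes Nid2 rose by 0.60, and Lama2 (-0.60) and Lamb2 (-0.30) fell. Of 24 proteoglycan and elastic fibre genes Aspn, the gene for asporin, rose by 1.30, and 6 fell. Those with the smallest adjusted p were Sparcl1 (-0.68), Sdc1 (-0.74) and Mfap2 (-0.65), and those with the larger falls were Spp1 (-2.19) and Fbln1 (-1.01). In the TGF-beta pathway 5 of 18 fell and none rose, among them Ltbp4 (-1.03), which encodes a protein that tethers latent TGF-beta to the matrix. Of 10 matrix receptors Ddr2 (-0.61) and Itgb5 (-0.60) fell. Of 16 other proteases and inhibitors 4 fell and none rose. In order of adjusted p these were Htra1 (-0.63), Adam17 (-0.51), Plau (-0.995), which encodes urokinase, and Adam15 (-0.31).

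In obese against lean adipose tissue, where 6.02% of all probe sets were called, the calls were 1 of 15 for collagen making, 3 of 11 for basement membrane and 2 of 24 for proteoglycan and elastic fibre genes. P3h3, a collagen prolyl hydroxylase gene, fell by 0.85, and the laminin genes Lama4 (-0.81), Lamb1 (-0.69) and Lamb2 (-0.39) fell, while Spp1 rose by 3.64 and Sdc2 fell by 0.44. None of 18 TGF-beta pathway, 10 receptor and 16 protease genes was called. In liver and muscle no gene of these lists was called in either comparison.

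Markers of several cell types, adipocytes among them, moved with the same groups in adipose tissue. The summed signal of 8 adipocyte markers was 52953.4 to 66372.1 in lean and 50335.3 to 58316.7 in untreated obese rats. With pioglitazone it was 65202.5 to 68817.2, with rosiglitazone 61136.7 to 70530.3 and with troglitazone 70211.1 to 75718.8. With AG035029 it was 53919.1 to 72587.0, which overlapped the untreated obese range. The summed signal of 14 macrophage markers ranged from 25247.0 to 29180.2 in lean and from 44566.0 to 48425.9 in untreated obese rats. It was 27376.5 to 34602.7 with pioglitazone, 34042.5 to 41175.9 with rosiglitazone, 24191.7 to 33350.1 with troglitazone and 22058.6 to 29362.2 with AG035029. Of these 14, 7 were called higher in obese rats (Cd68 by 1.33) and 9 lower under the ligand mean (Cd68 -0.85). The summed signal of 12 fibroblast markers was 21859.3 to 23084.5 in lean and 23637.8 to 24659.5 in untreated obese rats. With pioglitazone it was 21377.7 to 22246.2, with rosiglitazone 20981.4 to 24191.2, which overlapped the untreated obese range, with troglitazone 19785.2 to 23247.0 and with AG035029 16082.6 to 20276.0. Under the ligand mean 1 marker rose (Ly6c) and 3 fell, S100a4 (-1.54), Pi16 (-1.06) and Pdgfra (-0.67). S100a4 thus made the largest fall, from a mean signal of 5368.5 in untreated obese rats to 1915.3 with a ligand. It had been higher in obese than in lean rats (lean mean 2616.7), where Ly6c was lower. The moves of the sum therefore rest in large part on S100a4. Endothelial sums (8 markers) were 6410.6 to 8499.4 in lean and 5426.0 to 5804.2 in untreated obese rats, and with a ligand from 4307.9 (pioglitazone) to 6228.3 (troglitazone), on both sides of the untreated obese range. Of these markers Egfl7 was lower in obese rats (-0.55), and under the ligand mean Kdr rose by 0.95 while Cldn5 (-2.04) and Emcn (-0.77) fell. The sum of 10 lymphocyte and antigen presentation markers was 8280.6 to 9738.2 in lean and 11097.6 to 11598.0 in untreated obese rats. It was 5634.5 to 7004.7 with pioglitazone, 6973.0 to 9363.8 with rosiglitazone, 5056.6 to 7380.9 with troglitazone and 5062.3 to 6288.7 with AG035029. Of the 6 tested, 2 were higher in obese rats (Coro1a by 0.77) and 5 lower under the ligand mean (Coro1a -1.18, Cd74 -0.85). Alb, a hepatocyte marker, rose by 4.43 under the ligand mean, and the other hepatocyte markers tested were not called. The part of cell composition in the matrix gene changes was not tested.

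In liver, no member of 42 was called between obese and lean rats or under the ligand mean, where 0.672% and 0.494% of all probe sets were called by limma. At an unadjusted p under 0.05, 2 members passed in the first comparison (4.76%, beside 9.76% of all probe sets) and 0 in the second (beside 10.6%). Fn1 read 10923, 7492 and 12219 in lean and 5907, 7986 and 9636 in untreated obese rats, and from 4546 to 11634 with a ligand, so that all groups overlapped. Col3a1 read 1975, 2718 and 2787 in untreated obese rats and from 989.6 to 3636 with a ligand, and the 3 pioglitazone arrays all lay above the untreated obese ones. The members' median under the ligand mean was 0.15 and that of all probe sets -0.01. Each of the 4 single ligands called 0 members, beside 0.0210% of all probe sets for pioglitazone, 0.0630% for rosiglitazone, 0.662% for troglitazone and 0.200% for AG035029. At an unadjusted p under 0.05 pioglitazone gave 3 members and the others 1 each, beside 6.95%, 9.38%, 9.96% and 9.43% of all probe sets. The F-test among ligands called 0 members (0.0105% of all probe sets), and 4 passed unadjusted (9.52%, beside 6.31%).

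The 1 liver call came against lean rats, where Adamtsl4 was higher under the ligand mean (1 of 42 members, 2.38%, beside 3.18% of all probe sets). It read 562, 404 and 556 in lean rats, 437, 711 and 790.4 in untreated obese rats and between 693 and 914 with a ligand. Adamtsl4 rose by 0.62 (SE 0.158, limma adjusted p = 0.0305), and the call was lost without any 1 of the 3 lean arrays or pioglitazone array 2. In adipose tissue the same gene had been lower under the ligand mean than in lean rats (-0.81).

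In muscle no member of 56 was called between obese and lean rats or under the ligand mean (0.0210% and 0.242% of all probe sets by limma), and at an unadjusted p under 0.05 there were 7 (12.5%, beside 4.87% of all probe sets) and 11 (19.6%). Of those 11, 10 were lower and 1 higher, and 7.11% of all probe sets passed the same unadjusted threshold. All 9 fibrillar collagen probe sets lay below 0 under the ligand mean, with a median of -0.41, where the median of all members was -0.18 and that of all probe sets -0.04.

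In muscle no member passed an adjusted test for a single ligand or for a difference between ligands, while the counts at an unadjusted threshold differed between the ligands. All members were read on the same arrays and may vary together, so that these are not counts of independent results. Of 56 members, 21 passed an unadjusted p under 0.05 with rosiglitazone, 19 of them lower, and 19 passed with AG035029, all lower. Pioglitazone gave 2, both higher, and troglitazone gave 8, of which 4 were higher and 4 lower. The unadjusted shares of all probe sets were 6.73% for rosiglitazone, 6.72% for AG035029, 5.98% for pioglitazone and 10.7% for troglitazone. The members' medians were -0.35 with rosiglitazone, -0.33 with AG035029, -0.08 with troglitazone and 0.09 with pioglitazone. None of these members was called after adjustment in any of the 4 comparisons (0.231%, 0.0315%, 0.704% and 0.116% of all probe sets for pioglitazone, rosiglitazone, troglitazone and AG035029), where the same untreated obese arrays again served all of them.

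Col1a1 (1370864_at) in muscle read 5302, 8542 and 8960.4 in untreated obese rats and 7681, 9313 and 5238 with pioglitazone. It read 4389, 2958 and 3764 with rosiglitazone and 3089, 2382 and 3442 with AG035029, which both lay below the untreated obese arrays, and 7725, 2673 and 4772 with troglitazone, which overlapped them. The difference with AG035029 was -1.33 (SE 0.321, limma adjusted p = 0.189) and with rosiglitazone -1.01 (adjusted p = 0.472). Col1a2 (1387854_at) read 10041, 14319.8 and 13233 in untreated obese rats, 8339, 6139 and 6173 with rosiglitazone and 6154, 4482 and 5476 with AG035029, and these did not overlap either.

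Timp1 read 149, 398 and 226 in untreated obese muscle and 35.6, 115 and 59.8 with AG035029, the lowest 3 of the 18 muscle arrays. Its difference was -1.62 and not called (limma adjusted p = 0.207). Col4a1 (1372439_at) read 1043, 1140.4 and 766 in untreated obese rats. It read 697, 492 and 518 with rosiglitazone and 450.2, 523 and 576 with AG035029, where -0.89 was not called (adjusted p = 0.184). The brighter Col4a1 probe set 1373245_at (muscle mean 1522.4 against 896.4) did not share this fall. It gave 0.03 with AG035029 and -0.17 with rosiglitazone, neither called. Sparc, which encodes a collagen-binding protein, read 4289.6, 5494 and 5206 in untreated obese rats on 1367563_at. With rosiglitazone it read 3426, 2643 and 4004 and with AG035029 3038, 3506 and 3062, all below the untreated obese arrays.

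The F-test among ligands in muscle called 0 of 56 members with limma, and 24 passed an unadjusted p under 0.05, or 42.9%, beside 9.68% of all probe sets, of which 0.0% were called. The smallest adjusted p values were 0.116 for Col4a1 (1372439_at), 0.173 for Timp1 and 0.198 for Sparc (1367562_at). Without array 3 of the troglitazone group the same test called 6 members. Rosiglitazone minus pioglitazone was lower for all 26 members that passed unadjusted, and AG035029 minus pioglitazone for all 25, with members' medians of -0.43 and -0.39. Of all probe sets 7.94% and 7.68% passed unadjusted. After adjustment 0 members were called in both, beside 0.0210% and 0.0% of all probe sets. For Col1a1 (1370864_at), AG035029 minus pioglitazone was -1.29 with a 95% interval from -1.96 to -0.62 (adjusted p = 0.249).

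Against lean muscle, the ligand mean was lower for 2 of 56 members (3.57%, beside 1.11% of all probe sets), Lum and Fbn1. Lum read 2214, 1387 and 1726 in lean rats, 1349.8, 1027 and 1465 in untreated obese rats, and from 418 to 1398 with a ligand. Only rosiglitazone array 1 and pioglitazone array 3 of the 12 reached above the lowest lean array. Lum was lower by 1.02 (-1.02, SE 0.242, limma adjusted p = 0.0438), a call lost in 15 of 26 alternatives, with adjusted p up to 0.275. Fbn1 (1368829_at), the gene for fibrillin of the microfibrils, read 1559, 1369.7 and 1709 in lean rats and was lower by 0.92 (-0.92, SE 0.200, adjusted p = 0.0232). That call was lost without any 1 of the 3 lean arrays. The brighter Fbn1 probe set 1387351_at (muscle mean 1338.5 against 991.1) was tested and not called. At an unadjusted p under 0.05, 23 of the 56 members passed (41.1%), 21 of them lower, beside 11.1% of all probe sets. Without troglitazone array 1, which had the highest muscle signals of the adipocyte genes Cfd (3522.3) and Lep (271.3), 7 members were called.

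Adipocyte markers moved with the ligands in muscle. Their summed signal was 5273.6 to 12695.4 in untreated obese muscle, 20125.0 to 33686.8 with pioglitazone, 15823.0 to 22256.1 with rosiglitazone, 25522.6 to 44369.0 with troglitazone and 15580.7 to 27084.1 with AG035029, and 3 of 6 tested were called higher under the ligand mean (Fabp4 by 2.03). The sum of the fibroblast markers in muscle was 7107.3 to 7634.6 in untreated obese rats, 7577.8 to 7888.3 with pioglitazone, 9481.5 to 10849.7 with troglitazone, 5194.6 to 6521.6 with rosiglitazone and 5275.2 to 6296.0 with AG035029, with 0 of 7 called. Rosiglitazone and AG035029, the ligands with the lower collagen signals, also had the lower fibroblast sums. The 2 measures did not run together in all groups. Lean muscle had a sum of 5897.2 to 6144.8, and no member was called between it and untreated obese muscle. Troglitazone had the highest sums, while its Col1a1 difference from untreated obese muscle was -0.68, not called. The part of cell composition was not tested.

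**Figure D4:**
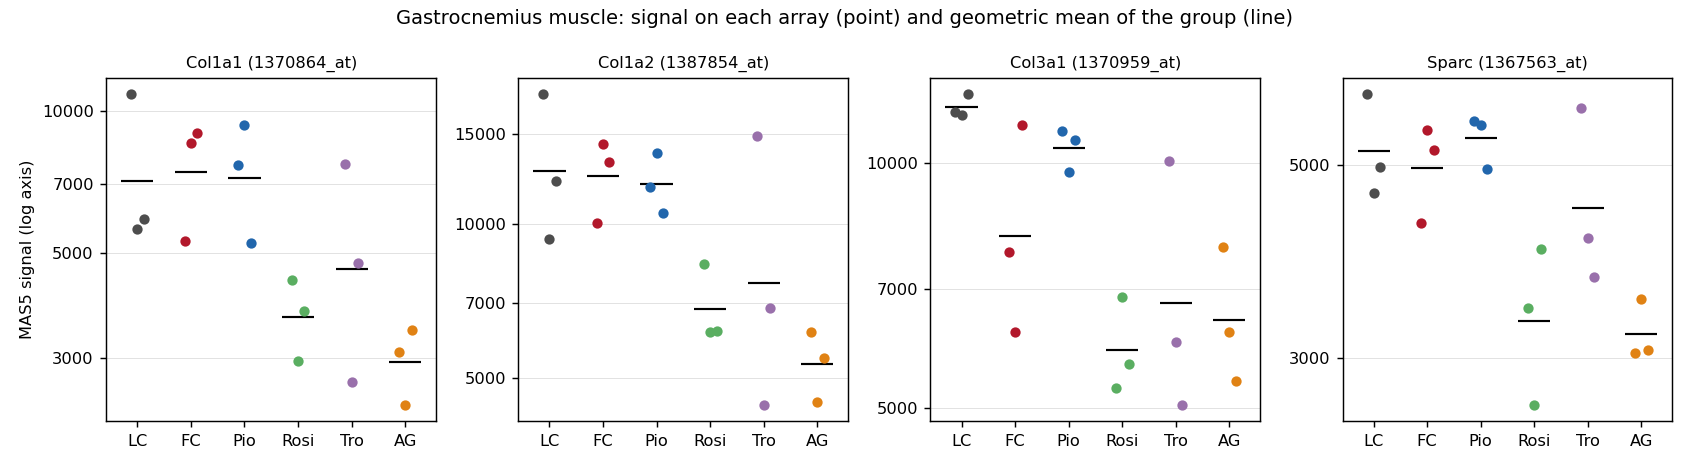
Signal in muscle (vertical log axis, array signal) of Col1a1, Col1a2, Col3a1 and Sparc in the 6 groups (LC lean, FC untreated obese, and obese with each ligand), with 1 point per array and a line at the geometric mean of each group. The rosiglitazone and AG035029 arrays of Col1a1 lie at or below 4389, under the untreated obese range of 5302 to 8960.4, and no member was called in these comparisons.

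Whether the ligand effect itself differed between the tissues was tested in the joint fit. It did for 6 of 64 member probe sets (9.38%, beside 4.93% of all 11520): Tnc (limma F-test adjusted p = 0.000287), both probe sets of Col14a1 (0.00138 and 0.00425), Mmp2 (0.00261), Postn (0.00295) and Col1a1 (0.00334). All 6 kept their call in all alternatives run. The rise of Tnc was 3.37 larger in adipose tissue than in muscle (SE 0.613), and that of Postn 1.68 larger. Both genes lay below the filter in liver, so that no size is given for their differences from liver, which also enter the F-test. For Col1a1 (1370864_at) it was 1.65 larger than in muscle (SE 0.329, adjusted p = 0.00179), and 0.93 larger than in liver, which was not called (adjusted p = 0.104). Mmp2 differed from liver by -1.12 (adjusted p = 0.00105), and its -0.71 against muscle was not called (adjusted p = 0.0773).

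The obesity effect differed between tissues for 1 member of 64, Col15a1 (1.56%, beside 0.868% of all probe sets). Col15a1 lay below the filter in liver and entered the joint fit through the other tissues, so that its liver signals are close to what the arrays can measure. It encodes a collagen that links the basement membrane to the fibrils beyond it. It read 56.8, 60.9 and 77.0 in lean liver and 209, 201 and 83.1 in untreated obese liver, and 1109.8, 1250.2 and 1214 in lean and 872, 521 and 1092 in untreated obese muscle. The obese arrays thus lay above the lean ones in liver and below them in muscle. The difference of the effects was 1.61 (SE 0.376, limma adjusted p = 0.0350), with an F-test adjusted p of 0.0378 that ran from 0.00371 to 0.136 over 62 alternatives and was lost in 15.

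**Figure D5:**
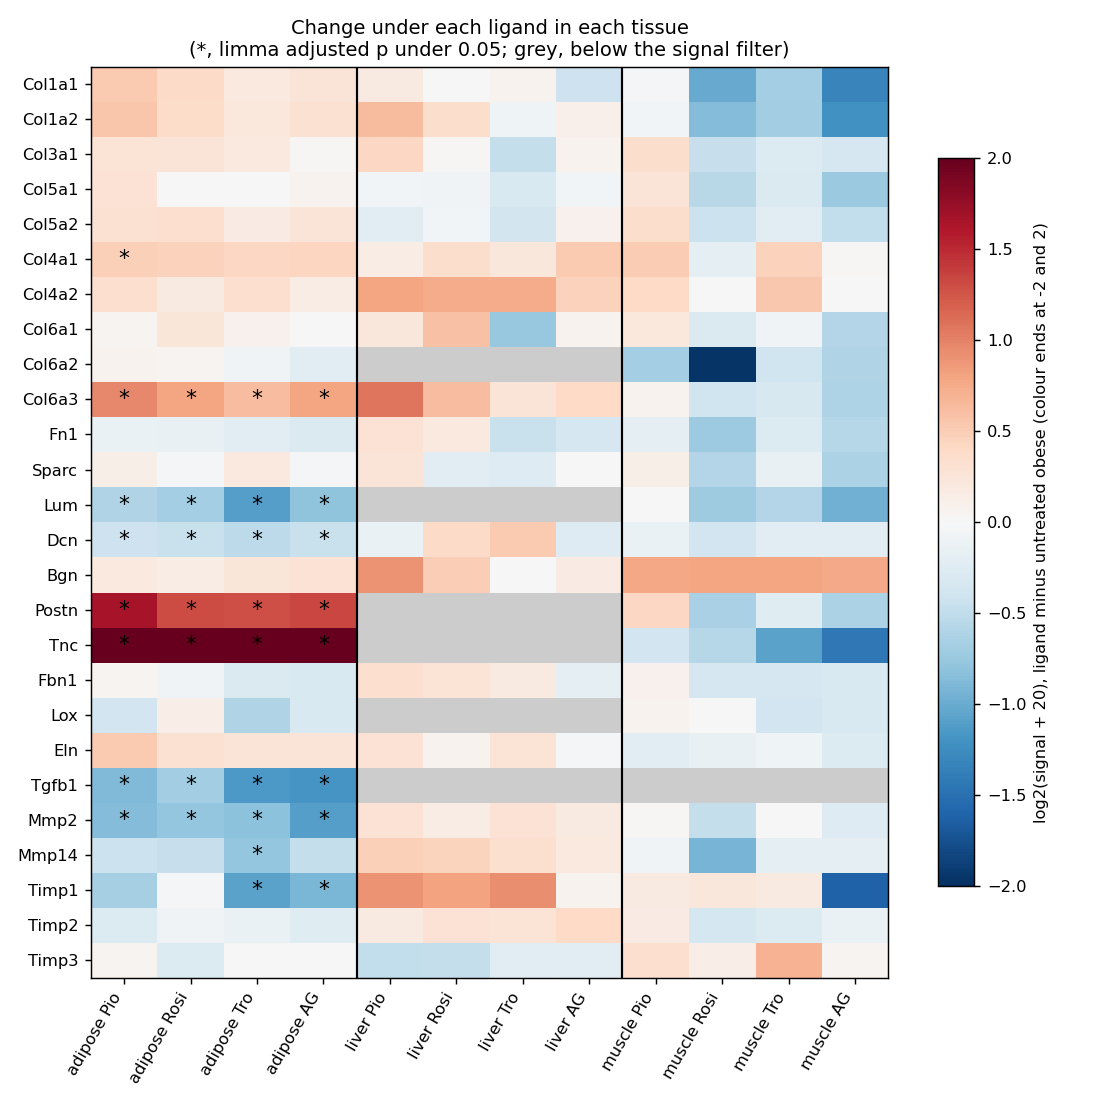
Difference of each ligand group from untreated obese rats (colour, log2 of signal + 20, colour scale ending at 2 in both directions) for 26 matrix genes in adipose tissue, liver and muscle; a star marks a limma call and grey a probe set below the filter. All 32 starred cells belong to adipose tissue, and liver and muscle have 0. Each cell shows the gene's probe set with the highest mean in that tissue, so that a row can hold different probe sets. In adipose tissue the cells of Col1a1, Col1a2 and Timp2 show 1388116_at, 1370155_at and 1386940_at, not the probe sets called in the text.

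Of the 83 member probe sets, 38 (29 genes) were tested in all 3 tissues and 19 in none. The 19 hold 16 genes with no call possible in any tissue, among them Adamts9, Col10a1, Col11a1, Col27a1, Mmp3, Mmp7, Mmp8, Mmp9, Mmp10, Mmp11, Mmp13 and Mmp16. Tnc, Postn, Tgfb1, Lum, Lox, Col12a1, Col15a1 and Col5a3 lay below the filter in liver, and Tgfb1, Col5a3, Mmp23 and Col2a1 in muscle, so that an absent call there says nothing of them. Among the untested members, the promoters of Mmp3, Mmp7, Mmp10 and Mmp13 share a feature with that of Mmp12, which was tested in adipose tissue. All 5 hold the AP-1 site TGANTCA, which is its own reverse complement, within 250 bases before the start, as does Col6a1, 6 of 45 member promoters in all beside 6.36% of all promoters. The 100 bases before the start of Mmp12 (RefSeq, GRCr8, chr8:12866552-12866651, plus strand) are shown as an example, with the AP-1 site and 2 overlapping TATA matches in capitals, which begin at -41 and -39.

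Mmp12: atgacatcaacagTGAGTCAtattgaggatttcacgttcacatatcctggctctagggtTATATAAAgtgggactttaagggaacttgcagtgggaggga

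In the adipose arrays Mmp12 read 101, 122 and 121 in lean and 231, 267 and 204 in untreated obese rats, which did not overlap, at a difference of 0.91 that was not called (limma adjusted p = 0.37). Of all probe sets tested, 27.9% likewise did not overlap in that comparison.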

How the data were processed

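The deposited values are MAS5 signal intensities, linear and never negative, which the authors made with MAS5 per the submitters' processing notes (no version is given there). Per the deposited values, each of the 54 arrays was scaled to a trimmed mean of 500.1 to 500.2 (2% trimmed at each end), and array medians ran from 190.8 to 248.4. The intensities were used as log2(signal + 20), since low values are unreliable, and 57 control probe sets were left out. Probe sets were named through the platform annotation: 12783 had 1 symbol, 312 several and 2771 none. All 83 member probe sets matched RefSeq by gene ID.

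Linear models (limma 3.58.1 under R 4.3.3, moderated with eBayes and a trend) were fitted once per tissue to its 18 arrays, over the 9519 probe sets whose mean exceeded the 40th percentile, and 1 joint model to all arrays (11520 probe sets) for lean tissues and for differences of effects between tissues. The joint model took all 54 arrays as independent, although the sources used here do not state whether the same rats gave the 3 tissues. P-values were Benjamini-Hochberg adjusted over all probe sets tested. On simulated intensities with 200 changed probe sets, the obese against lean fit recovered 85% of log2 changes of 1 for adipose tissue, 49% for liver and 52% for muscle. The number of arrays, 3 per group, limits the precision.

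The genes and lists were chosen with earlier results of these data known. Named in the text are up to 10 called members per direction and comparison, the members with the highest signals of each tissue, a list of 27 well-known matrix genes, the leading members of each F-test and the leading pathway genes. The values of Mmp12, Mmp23, Col7a1, Col15a1 and the 3 arrays that stood apart were singled out after they were seen. Alternatives were the pseudocount, the filter, quantile normalization, median centring, array weights, the replicate block, fewer groups in the fit and leaving out each array. Promoters are RefSeq sequences of build GRCr8, not needed for the array values.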

Additional observations from a re-analysis of the deposited data

Results flagged for a closer look

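The ligand effect differed between adipose tissue, liver and muscle, by limma's F-test over the 3 tissues in the joint fit, for 6 member probe sets. The adjusted p was 0.000287 for Tnc, 0.00138 for Col14a1 on 1376170_at and 0.00425 on 1376105_at, 0.00261 for Mmp2 on 1370301_at, 0.00295 for Postn and 0.00334 for Col1a1 on 1370864_at. Tnc and Postn lay below the filter in liver. Tnc, Postn and Col1a1 rose in adipose tissue and gave -0.86, -0.28 and -0.76 in muscle, not called. Col14a1 and Mmp2 fell in adipose tissue, and gave 0.41 (1376170_at) and 0.23 in liver, not called. The effect of obesity differed between tissues for Col15a1 (adjusted p = 0.0378), which was higher in obese than in lean liver arrays and lower in obese than in lean muscle arrays. Col15a1 lay below the filter in liver.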

How the results depend on the processing

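Each count was recomputed under every alternative, and no called member changed direction. Direction was checked for called members only, and an F-test has none. For the members named in the text, 7880 values kept their state as called or not called, 262 lost the call and 21 gained one. In obese against lean adipose tissue the count of 5 became 2 with no filter, 9 with array weights and 8 with only the arrays compared in the fit, and for pioglitazone 15 became 24 with only the arrays compared. Against lean rats, the liver count of 1 became 2 with no filter, and the muscle count of 2 became 4 with a pseudocount of 80, 1 with no filter, 1 with median centring and 8 with array weights. The obesity effect that differed between tissues for 1 member did so for 0 with a pseudocount of 80, 0 with median centring and 3 with array weights, and the ligand effect that differed for 6 did so for 10 with a pseudocount of 80 and for 10 with array weights. Leaving out single arrays gave 1 to 7 (of 5) in obese against lean adipose tissue, 13 to 20 (of 18) for the ligand mean, 17 to 25 (of 23) for the ligand mean against lean, 10 to 19 for pioglitazone, 6 to 13 for rosiglitazone, 12 to 18 for troglitazone and 9 to 16 for AG035029. It gave 0 to 1 in liver and 0 to 7 in muscle for the ligand mean against lean, 0 to 1 for rosiglitazone, troglitazone and AG035029 in muscle, and 0 to 6 for the F-test in muscle. It gave 50 to 53, 42 to 46 and 39 to 44 for the lean tissues, and 0 to 2 and 6 to 9 for the effects that differed between tissues. The cause of these shifts was not tested. With the replicate number as a block, obese against lean adipose tissue gave 6, the ligand mean 18, the ligand mean against lean 22, pioglitazone 15, rosiglitazone 10, troglitazone 15, AG035029 12, and muscle against lean 3. Within a tissue, same-numbered arrays of different groups correlated weakly on average after removal of group means. The mean correlations were 0.0184, 0.0032 and 0.0117 in adipose tissue, liver and muscle. Of 45 pairs, 9, 2 and 3 lay over 0.1, with the highest at 0.226 in adipose tissue. Whether same-numbered arrays of the 3 tissues came from the same rats was not tested. The larger spread in liver and muscle limits what could be called there.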
